A study of Drosophila melanogaster with 4 samples.

Results

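The Drosophila homeotic genes lie in 2 clusters on chromosome arm 3R, and this account describes the H3K4me2 of both clusters in nuclei of the adult fly head. The clusters were taken as fixed intervals of FlyBase release 5. The Antennapedia complex interval (lab, pb, Dfd, Scr and Antp) ran from 3R 2480000 to 2830000, and the bithorax complex interval (Ubx, abd-A and Abd-B) from 3R 12470000 to 12810000. Every deposited region of significant H3K4me2 enrichment that overlapped either interval was a member. There were 7 members among the 5127 regions of ChIP replicate 1, 8 among the 5125 of replicate 2 and 13 among the 5559 of a combined list for both replicates. The intervals were chosen by their sparse marking in all 3 lists (few regions, few base pairs covered and long free stretches), so those values are given as a description, with no test.

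All libraries came from wild-type Oregon-R flies of the mixed adult stage. Heads were separated from whole adults with sieves, so each library holds chromatin from many heads and many cell types. H3K4me2 chromatin immunoprecipitation with sequencing (ChIP-seq) gave 2 ChIP libraries, and 2 input DNA libraries served as their controls in the authors' processing. The labels do not tie each replicate to its own collection of flies, and the SDs below may therefore measure technical spread alone. The files hold no expression values, so the head origin was not checked against marker genes.

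Homeotic genes encode homeodomain transcription factors that give segments of the body their identity. Along each complex the genes are arranged broadly, though not strictly, in the order of the body parts that they pattern. In the Antennapedia complex, labial (lab) and Deformed (Dfd) act in segments of the head, proboscipedia (pb) in the mouthparts, Sex combs reduced (Scr) in the labium and prothorax, and Antennapedia (Antp) in the thorax. In the bithorax complex, Ultrabithorax (Ubx) specifies the haltere-bearing segment, and abdominal-A (abd-A) and Abdominal-B (Abd-B) specify the abdomen. Where these genes are silent, Polycomb group proteins hold them in chromatin marked by H3K27 methylation, and where they are active, trithorax group proteins keep them on. H3K4me2, dimethylation of lysine 4 of histone H3, typically accompanies promoters and enhancers that are in use.

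The gene order of both clusters was read from the RefSeq table of release 6, by name only. From lab to Antp the table lists 19 protein-coding genes, in which the 5 homeotic genes stand among others of different roles. Between lab and pb lies a row of cuticle protein genes (Edg84A and the Ccp84A genes). Between pb and Dfd lie zen2, zen and bcd, homeobox genes of the early embryo, and Ama, which encodes a secreted immunoglobulin-domain protein. The pair-rule gene ftz lies between Scr and Antp. From Ubx to Abd-B the table lists 6 protein-coding genes, the 3 homeotic genes with CG31275, Glut3 and MSAmiP, together with non-coding RNAs such as bxd, iab4 and iab8. The regions carry release 5 positions and the gene table release 6 positions, so no region below is assigned to a single gene.

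Both complexes were nearly bare of H3K4me2 regions. Replicate 1 placed 5 regions in the Antennapedia complex interval and replicate 2 placed 6, and each replicate placed 2 in the bithorax complex interval. The Antennapedia complex interval was covered to 4.36% in replicate 1 and 4.82% in replicate 2, a mean of 4.59% ± 0.326 (SD, n = 2). The bithorax complex interval was covered to 3.18% and 3.21%, a mean of 3.19% ± 0.0250 (SD, n = 2). Of all base pairs of 3R, 20.3% lay inside a region in replicate 1 and 20.5% in replicate 2. Coverage was thus 4.44-fold lower in the Antennapedia complex interval and 6.38-fold lower in the bithorax complex interval than over the arm. Regions numbered 15.7 ± 2.02 per Mb in the Antennapedia complex interval, 5.88 per Mb in both replicates in the bithorax complex interval, and 43.6 ± 0.253 per Mb on 3R (SD, n = 2). These are bulk lists, so a mark carried by few cells of the head and a weak mark in many cells cannot be told apart. The read depth and the threshold of the region caller are unknown here, so sequence outside the regions is sequence without a call, not sequence shown to lack the mark.

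The highest-scoring and widest region of the Antennapedia complex lay at its low end, on the side of lab in the gene order. The first region lay at 3R 2481195 to 2486591 in replicate 1 and 2481171 to 2486620 in replicate 2, and it spanned 5.42 ± 0.0375 kb on average (SD, n = 2). Its score, a value per region deposited by the authors without a definition, was 2.03 in replicate 1 and 1.93 in replicate 2. It scored above 91.2% of all 3R regions in replicate 1 and above 90.8% in replicate 2. This was the highest-scoring region of either complex in each replicate. It began 1.20 kb inside the interval in replicate 1 and 1.17 kb inside it in replicate 2, so it marks the edge of the complex as the interval draws it. Without the outermost 10 kb at each end, 3.22% of the interval was covered.

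The other Antennapedia complex regions stood far apart, and apart from 1 near the 3R median width they were narrow, at 1.69 to 2.68 kb over both replicates. A small region followed at 3R 2503327 to 2505244 in replicate 1 and 2503348 to 2505038 in replicate 2, with scores of 0.58 and 0.51. After a free stretch of 61.2 kb in replicate 1 and 61.4 kb in replicate 2, a region of 2.64 ± 0.0509 kb (SD, n = 2) lay at 3R 2566455 to 2569132 (replicate 1), with scores of 1.03 and 1.00. This was the second-highest score of the complex, and it still fell below the 3R median, above 36.8% of regions in replicate 1 and above 37.2% in replicate 2.

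The next region, at 3R 2673369 to 2676909 in replicate 1 and 2673304 to 2676958 in replicate 2, was of ordinary width but scored low. Its width of 3.54 kb in replicate 1 and 3.66 kb in replicate 2 was close to the 3R medians of 3656 and 3644 bp, whereas its scores were 0.55 and 0.65 against 3R medians of 1.35 and 1.28. In replicate 1, 0 of the 624 regions of 3R at least as wide (itself included) scored lower, and in replicate 2, 6 of 610 did. This comparison was chosen after the values were seen.

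The region farthest from lab in both replicates had the lowest score. It lay at 3R 2738035 to 2739755 in replicate 1 and 2738062 to 2739763 in replicate 2, with a mean width of 1.71 ± 0.0134 kb and scores of 0.19 and 0.16 (mean 0.17 ± 0.022, SD, n = 2). Both were the lowest scores on 3R, at rank 1212 of 1212 and rank 1222 of 1222. Over all sequences, 1 region scored lower in each replicate list, of 5127 and 5125. The combined list gave it a score of 0.12, at rank 1288 of 1291 on 3R. The call was made in both replicates, at starts 27 bp apart and ends 8 bp apart.

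**Figure D1:**
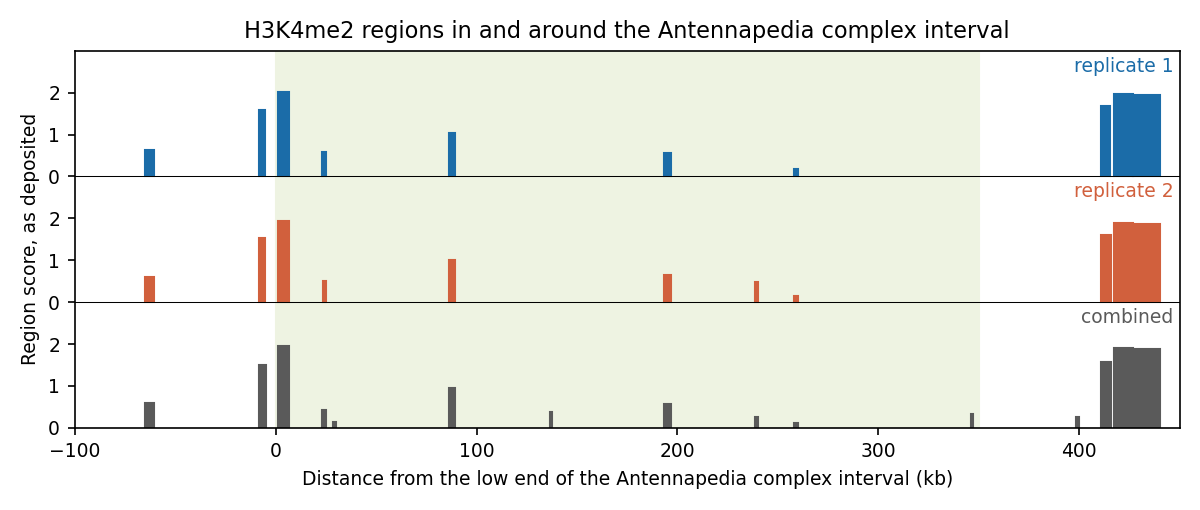
H3K4me2 regions in the Antennapedia complex interval (shaded) and in 100 kb on each side, for replicate 1, replicate 2 and the combined list. The x axis is the distance in kb from the low end of the interval, and the height of each bar is the region's score as deposited, its width the region's width. A high bar stands at the low end, 4 or 5 small bars are scattered over the rest in the replicates, and a block of high bars begins 61.0 kb beyond the high end.

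In the bithorax complex, all replicate regions lay at the low end, on the side of Ubx in the gene order. A broad region ran from 3R 12465280 to 12478856 in replicate 1 and from 12465184 to 12478844 in replicate 2, across the lower bound of the interval. Its mean width was 13.6 ± 0.0594 kb (SD, n = 2), wider than 97.6% and 97.5% of the 3R regions of replicates 1 and 2. Its scores of 1.81 and 1.73 lay above 78.5% and 79.3% of 3R regions. A part of 8857 bp in replicate 1 and 8845 bp in replicate 2 fell inside the interval, which was most of the 10.8 and 10.9 kb covered there. A short region with scores of 0.48 and 0.61 followed 0.661 and 0.578 kb further on, at 3R 12479518 to 12481462 in replicate 1 and 12479423 to 12481499 in replicate 2.

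From there to its high end the bithorax complex held no region in either replicate. The free stretch ran for 329 kb in replicate 1 and 330 kb in replicate 2, and ended at regions that begin 730 and 1054 bp beyond the interval. Within the interval, it took up 96.6% of the length in both replicates. Only 1 free stretch of 3R was longer in either replicate, the one from 3R 1834942 to 2169577 (335 kb in replicate 1). The median stretch between regions on 3R was 6.39 kb in replicate 1 and 6.40 kb in replicate 2. Counting regions wholly inside the interval, only the short region remained, and coverage was 0.591%. Without the outermost 10 kb at each end, coverage was 0.463%. Widened by 50 kb on each side, the interval took in regions of both flanks and held 9 regions in the mean of the replicates, with 10.1% covered.

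**Figure D2:**
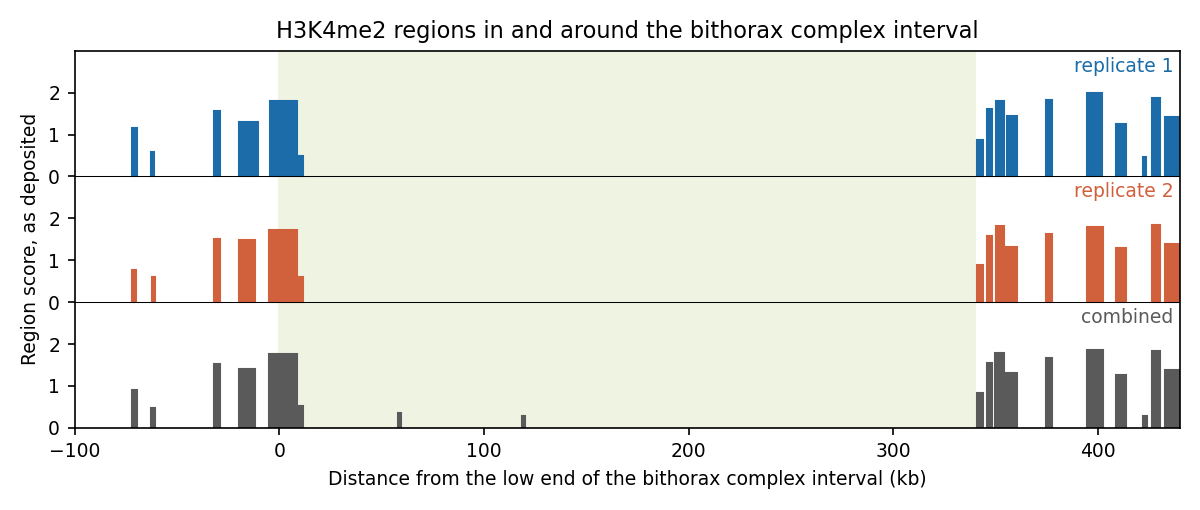
H3K4me2 regions in the bithorax complex interval (shaded) and in 100 kb on each side, for replicate 1, replicate 2 and the combined list. The x axis is the distance in kb from the low end of the interval, and the height of each bar is the region's score as deposited, its width the region's width. Bars crowd the flanks and the first 12 kb, the replicates show none in the rest of the interval, and the combined list shows 2 small ones.

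With all regions of each replicate list counted, free sequence was arranged differently in the 2 complexes. In the Antennapedia complex the isolated regions broke it up, so the longest free stretch inside the interval was 104 kb in each replicate (3R 2569133 to 2673368 in replicate 1). In the bithorax complex it was 329 kb in each (mean 328.5 ± 0.0262 kb, SD, n = 2). This difference rested on low-scoring regions. With the higher-scoring 50% of each list, 1 region was left in each complex. The longest free stretch was then 343 kb in the Antennapedia complex and 331 kb in the bithorax complex (means of the replicates). The stretch after the last Antennapedia complex region reached past the interval to 3R 2890962 in replicate 1 and 2890989 in replicate 2, and was 151 kb long in full in each. That made it the 11th longest of 3R in both replicates, and the 104 kb stretch ranked 37th of 1211 and 35th of 1223. Of the Antennapedia complex regions, 4 of 5 in replicate 1 and 5 of 6 in replicate 2 had over 10 kb free on both sides, against 17.2% and 17.3% of 3R regions. Of the bithorax complex regions 0 of 2 did in each replicate, since both lie next to each other. The limit of 10 kb was chosen after the values were seen. The intervals were chosen for few regions and long free stretches, so the isolation of their regions in part restates that choice.

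All intervals of the same length on 3R, begun every 10 kb, gave the background for these values. Intervals of 350 kb were covered to a median of 18.6% in replicate 1 and 18.9% in replicate 2, and intervals of 340 kb to 18.7% and 18.9%. Coverage no higher than in the Antennapedia complex was found in 0.726% of 2756 intervals in replicate 1 and 1.2% in replicate 2. For the bithorax complex the shares were 0.689% of 2757 intervals and 0.617%. Over the 4 large autosomal arms the mean shares were 3.68% for the Antennapedia complex and 2.36% for the bithorax complex, and with the higher-scoring 50% of each list they were 0.871% and 4.06% on 3R. In number of regions, 3.66% and 5.08% of intervals held no more than the Antennapedia complex, and 0.363% and 0.326% no more than the bithorax complex. By the longest free stretch the complexes parted when all regions were counted. A stretch at least as long as in the bithorax complex was found in 0.145% of intervals in each replicate, whereas 36.4% and 34.6% had one at least as long as in the Antennapedia complex. With all regions counted, the low coverage of the Antennapedia complex thus went with a longest free stretch that many intervals of equal length matched. Among single stretches of 3R it was long, at rank 37 of 1211 in replicate 1 and 35 of 1223 in replicate 2. It also depended on the bounds, which cut the 151 kb stretch at the high end. Widened by 50 kb on each side, the interval had a longest free stretch of 140.2 kb (mean of the replicates). With the higher-scoring 50% of each list, the longest free stretch of the Antennapedia complex was 343 kb, against 331 kb in the bithorax complex. The share of 3R intervals with stretches of those lengths was not taken at that setting. Overlapping intervals are not independent, and the intervals counted include those that overlap the complexes themselves.

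**Figure D3:**
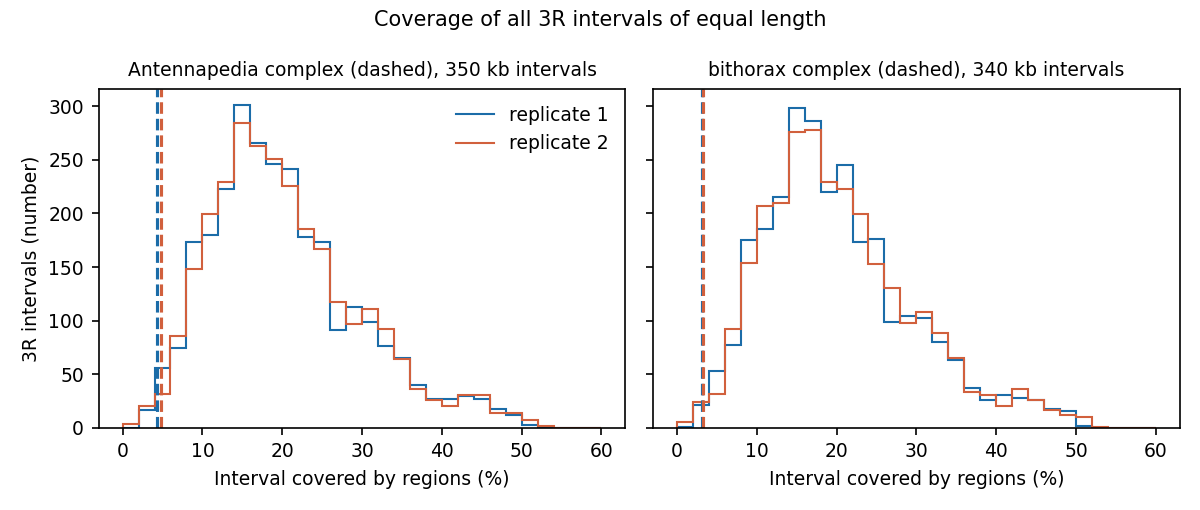
Number of 3R intervals (y axis) by the percentage of their length covered by regions (x axis, bins of 2%), for intervals as long as the Antennapedia complex interval (left) and the bithorax complex interval (right), in replicates 1 and 2. Dashed lines mark the complexes, at 4.36% and 4.82% on the left and 3.18% and 3.21% on the right, both in the low tail.

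Few places on 3R were as bare as the complexes. The intervals covered no more than the bithorax complex fell into 4 places in each replicate, 1 of which overlapped the bithorax complex and 1 the Antennapedia complex. The other 2 were the stretch from 3R 1790001 to 2190001 and one from 3R 11250001 to 11610001, where the barest interval was covered to 1.58% and 2.30% in replicate 1. Intervals covered no more than the Antennapedia complex fell into 4 places in replicate 1 and 5 in replicate 2, again with 1 overlapping each complex. The place found in replicate 2 only was at 3R 23790001 to 24150001, with a lowest coverage of 4.20%.

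The edges of the bare sequence differed between the complexes. Above the bithorax complex interval, regions set in at once, and 41.9% ± 0.552 of the next 100 kb was covered. Below it, 19.7% ± 1.13 of 100 kb was covered, which is near the level of the arm (SD, n = 2). The first region wholly outside lay 10.6 kb below the interval in replicate 1 and 12.0 kb below it in replicate 2. The broad region across the lower bound covered part of that sequence, which is counted in the 19.7%. It left 5.8 kb free below it in replicate 1 and 7.2 kb in replicate 2. The Antennapedia complex interval lay within sparse sequence that was longer than the interval itself. On the low side 7.43% ± 0.0361 of 100 kb was covered, and on the high side 27.1% ± 0.298 (SD, n = 2). All of the latter lay more than 60 kb beyond the interval, where regions of 4.21, 9.22 and 13.5 kb followed each other in replicate 1. The nearest regions outside scored 1.60 and 1.53 below the interval, 5.07 and 5.08 kb from it, and 1.67 and 1.60 above it, 61.0 kb from it in each replicate. Bins of 50 kb showed the same outline. In the bithorax complex the 5 bins from 50 to 300 kb were at 0% in both replicates. In replicate 1 the bin just below the interval was at 33.4%. The bin across the high end was at 11.6%, the next at 34.7% and that at 400 to 450 kb at 50.0%. In the Antennapedia complex, bins from 0 to 350 kb ranged from 0% to 14.6% in replicate 1 and from 0% to 14.3% in replicate 2.

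**Figure D4:**
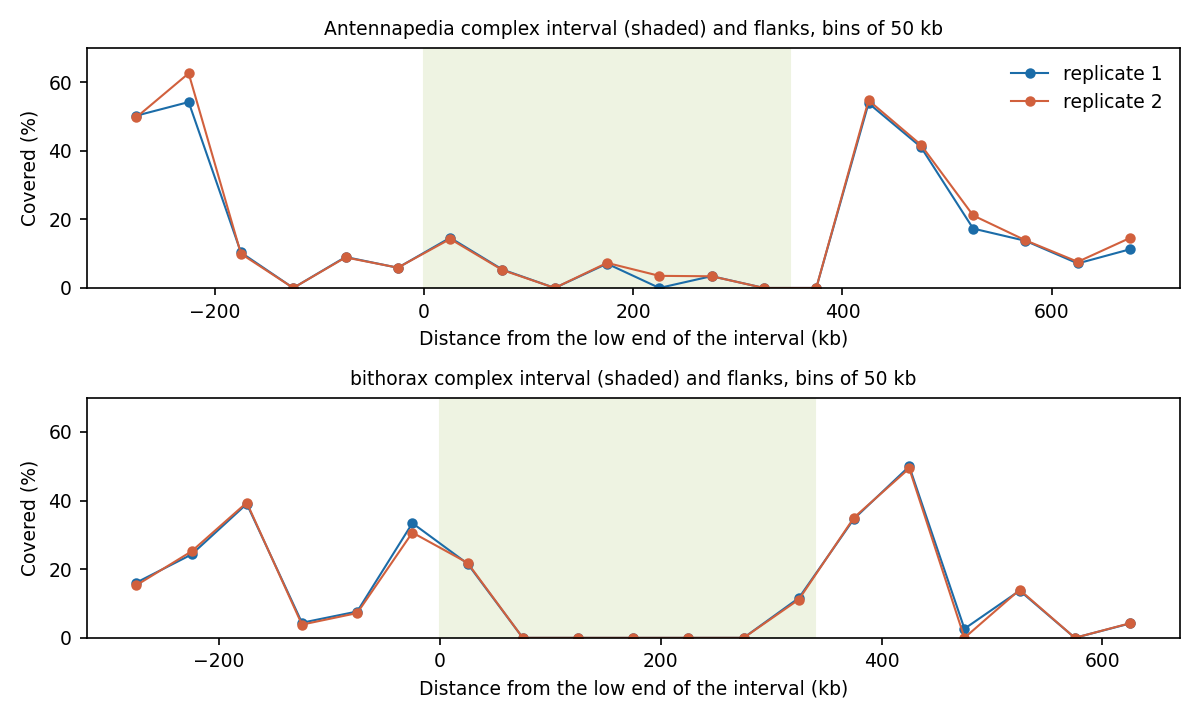
Percentage of sequence covered by regions (y axis) in bins of 50 kb across the Antennapedia complex (top) and bithorax complex (bottom) intervals, shaded, and their flanks, by distance from the low end (x axis, kb), for replicates 1 and 2. Coverage is at 0% in 5 consecutive bithorax complex bins, and the bin that crosses the high end, at 11.6% in replicate 1, holds sequence beyond the interval.

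As a group the members scored lower than the arm, with exceptions at the low ends. Median score was 0.58 over the 7 members of replicate 1 and 0.63 over the 8 of replicate 2, against 1.35 and 1.28 over all 3R regions. In replicate 1, 4 of 7 members fell among the lowest-scoring 25% of 3R regions, and in replicate 2, 5 of 8 did. Median width was 2678 and 2342 bp for the members and 3656 and 3644 bp for 3R. By complex, 4 of 5 Antennapedia complex regions in replicate 1 and 5 of 6 in replicate 2 scored below the 3R median. Of the bithorax complex regions, 1 of 2 did in each replicate. The median width of those 2 regions, 7761 bp in replicate 1 and 7869 bp in replicate 2, was above that of 3R. The exceptions were the region at the lab end and the broad region at the Ubx end, both above the 3R medians in score and width. With lists of 7 and 8 regions, chosen with these results known, no test was made.

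**Figure D5:**
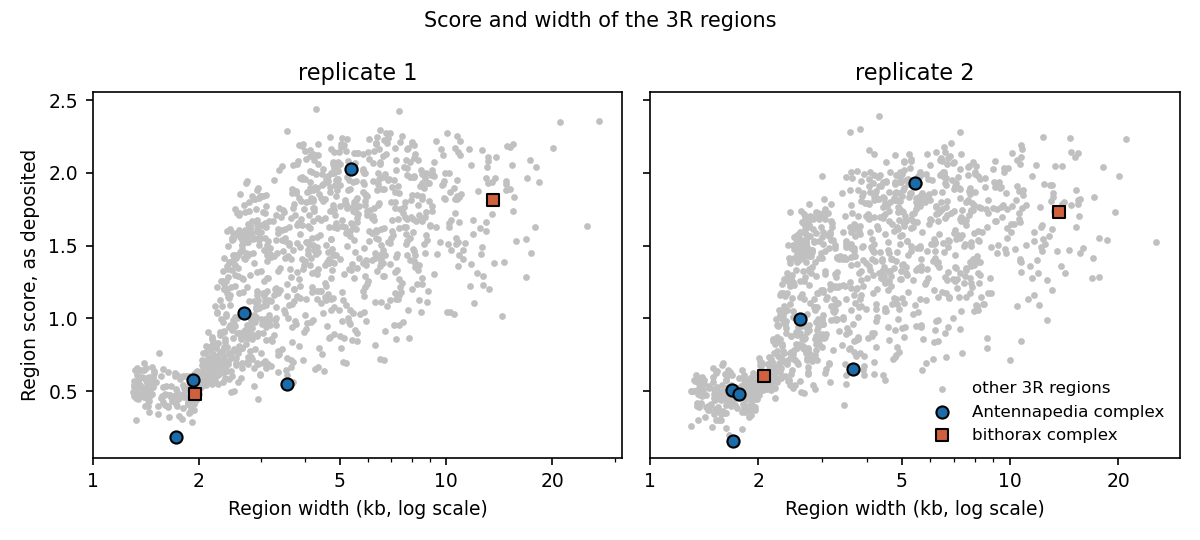
Score as deposited (y axis) against width in kb (x axis, log scale) for the 1212 regions of 3R in replicate 1 (left) and the 1222 in replicate 2 (right). Regions of the Antennapedia complex (circles) and bithorax complex (squares) are set on the other 3R regions (grey). Most lie among the narrow, low-scoring regions, 1 circle lies below all others, and 1 circle and 1 square lie high.

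Replicates placed the same regions in the complexes, with 1 exception. All 7 member regions of replicate 1 overlapped a region of replicate 2, and 7 of the 8 of replicate 2 overlapped one of replicate 1. Starts of the 7 pairs were 21 to 96 bp apart and ends 8 to 206 bp apart. Scores differed by -0.10 to 0.12 (replicate 2 minus replicate 1), and 2 of the 7 pairs scored higher in replicate 2. The median score of all 3R regions was also lower in replicate 2, at 1.28 against 1.35 in replicate 1. Differences over all pairs of 3R are not given here. The exception, at 3R 2718436 to 2720198 in the Antennapedia complex, was 1.76 kb wide and scored 0.48 in replicate 2. Of all 3R regions of replicate 2, 5.4% overlapped none of replicate 1, and 3.8% the reverse. Shared sequence made up 86.8% of that covered in either replicate in the Antennapedia complex, 98.7% in the bithorax complex and 90.2% on 3R.

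The combined list added 5 low-scoring regions to the complexes that overlapped no region of either replicate. In the Antennapedia complex these were 3 of 9 combined regions (33.3%), at 3R 2508600 to 2509900, 2616686 to 2617754 and 2826156 to 2827274. In the bithorax complex they were 2 of 4 (50%), at 3R 12528226 to 12529306 and 12588718 to 12589954. On 3R as a whole, 8.52% of combined regions overlapped neither replicate. The shares in the complexes rest on few regions, in intervals chosen by their sparse marking in these lists, so no test was made. The 5 regions were 1069 to 1301 bp wide and scored 0.14 to 0.38, with a median of 0.32, against a median of 0.37 for the 110 regions of this kind on 3R.

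Both bithorax complex additions lay inside the stretch that was free in the replicates. They left 221 kb without a region above the second one, still the second-longest free stretch of 3R in that list. In the Antennapedia complex the addition at 3R 2616686 divided the 104 kb stretch, and 86.4 kb was then the longest inside the interval, a length reached in 44.3% of 3R intervals. With the additions, 6 of the 9 Antennapedia complex regions and 2 of the 4 bithorax complex regions had over 10 kb free on both sides, against 16.4% of combined 3R regions. That contrast, too, in part restates the choice of sparsely marked intervals. In number of regions, 11.2% of 3R intervals held no more than the Antennapedia complex and 0.979% no more than the bithorax complex. Coverage in the combined list was 5.98% of the Antennapedia complex interval and 3.92% of the bithorax complex interval, against 22.8% of 3R. Of the 350 kb intervals of 3R, 1.31% were covered no more than the former, and of the 340 kb intervals 0.544% no more than the latter.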

How the data were processed

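H3K4me2 ChIP-seq was carried out on nuclei of adult Oregon-R heads, with 2 ChIP and 2 input DNA libraries grouped by their titles. The 3 deposited lists hold regions of significant enrichment, 1 list for each ChIP replicate and 1 for the replicate set, with positions on FlyBase release 5, per the file headers. A score accompanies every region in the authors' lists. Not given in the sources used here are what the score measures, which caller and threshold made the regions, and how the replicate set was built. The submitters' processing notes name Bowtie 0.12.7. Input libraries entered only through the authors' lists, and read depth is unknown.

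Regions overlapping an interval by at least 1 bp were counted in Python (3.11.15) using pandas 2.3.3, numpy 2.4.6 and scipy 1.17.1, and figures were made in matplotlib 3.10.9. Covered base pairs and free stretches were taken inside the interval bounds. The background was every 3R interval of equal length, begun every 10 kb. The code was tested on simulated lists. Members, intervals and lists were chosen with earlier results of these data known. Named regions are all those of the bithorax complex interval, the 10 widest and 3 highest-scoring of the Antennapedia complex interval (which takes in every region there), those in 1 list only and those that bound a free stretch. Alternatives were the combined list, each replicate alone, the higher-scoring 50% of each list, merging of regions under 1000 bp apart, regions wholly inside, intervals widened by 50 kb or narrowed by 10 kb, other background intervals and a reciprocal overlap of 50%. A release 5 gene annotation and genome were not used here, so no region has a gene, exon or intron, and no sequence is printed.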

Additional observations from a re-analysis of the deposited data

How the results depend on the processing

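Both complexes stayed less covered than 3R under each alternative run, where 3R itself was at 13.8% with the higher-scoring 50% of each list, 20.7% with regions merged and 22.8% on the combined list. The intervals were chosen by sparse marking in these same lists, so this is not an independent check. On the combined list the Antennapedia complex interval held 9 regions (5.98% covered, longest free stretch 86.4 kb, 1.31% of intervals as bare) and the bithorax complex interval 4 (3.92%, 220 kb, 0.544%). In that list the members' median score was 0.38, against 1.12 for all 3R regions, and their median width 1795 bp, against 3737 bp. Both comparisons of medians were added after the data were seen. With the higher-scoring 50% of each list, 1 region was left in each (1.55% and 2.60% covered, free stretches of 343 and 331 kb), and 4.06% of intervals were as bare as the bithorax complex. The longer free stretch of the bithorax complex was thus not seen at that setting. Widened by 50 kb, the intervals were covered to 4.22% and 10.1%, with free stretches of 140.2 and 329 kb and 9 bithorax complex regions. Narrowed by 10 kb, they were covered to 3.22% and 0.463%, with 1 bithorax complex region and a free stretch of 319 kb there. Merging regions under 1000 bp apart left 1 bithorax complex region (3.38%), as did counting regions wholly inside (0.591%). Of non-overlapping tiles, 1.27% were as bare as the Antennapedia complex and 0% as bare as the bithorax complex (means of the replicates). Such tiles are far fewer than intervals begun every 10 kb and need not line up with a complex, so these shares are coarse. Over the 4 large autosomal arms the shares as bare rose to 3.68% and 2.36%, and so were larger than on 3R alone. The cause of that was not tested.

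Leaving out either replicate gave 5 to 6 and 2 to 2 regions, 4.36 to 4.82% and 3.18 to 3.21% covered, and shares as bare of 0.726 to 1.20% and 0.617 to 0.689%, in the same order. No paired analysis was possible because the input libraries, which share the replicate numbers, have no region lists of their own among the files used. The effect of read depth, which the files do not give, was not tested.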
